A study of Mus musculus with 54 samples.

Results

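Clones E and T, the only clones of the 4T1 series labelled intravasating, were compared with each other. 4T1 is a mouse mammary carcinoma line that spreads from the mammary gland, and each clone was grown from a single cell of it. Intravasating means that cells of the clone were able to enter blood vessels. The comparison rests on 4 of 54 RNA-seq libraries, lettered A and B in each clone, and asks how far 2 clones with the same labelled capacity differ. The labels give no allele, transgene or treatment that separates E from T, and both grew in high-glucose DMEM with fetal bovine serum, fetal calf serum, non-essential amino acids and antibiotics, as did the 21 non-intravasating clones. Each of E and T is 1 clone. The labels do not say whether A and B are separate cultures. A p-value here measures no more than the spread between libraries, which may be technical. The 42 libraries of the other clones entered the estimate of that spread and serve as a backdrop. The 8 libraries of tumors and lung metastases were not used here.

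Entry into a vessel asks of a carcinoma cell that it loosen epithelial junctions, grip and cleave the basement membrane, move through matrix and contact endothelium. Serpine2 and Slpi, the genes that the study singled out, encode secreted inhibitors of serine proteases. The gene groups below are ordered by their place in this sequence, from junctions and matrix to the cytoskeleton, followed by lipid synthesis, interferon and antigen presentation, secreted signals and metabolism.

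Libraries A and B held 31609870 and 20377570 reads in clone E and 18985628 and 15581390 in clone T, against 8849257 to 27304778 in the libraries of the other clones. Levels are given as normalized counts of library A and then library B, which are comparable between libraries but not between genes, since they are not divided by length. Differences are clone E minus clone T on the deposited log2 scale, with their standard error, and adjusted p is limma's with Benjamini-Hochberg adjustment over 13637 genes. A gene is called at an adjusted p under 0.05, and a gene called toward a clone was higher in it. This scale compresses low counts, so a fold, where given, is a ratio of reads pooled over both libraries of each clone and scaled for depth. The luminal keratin gene Krt18 had 11171 and 14509 counts in E and 12825 and 9399 in T, and the epithelial surface gene Epcam had 1439.8 and 3028 against 1678 and 1535. The luminal keratin gene Krt8 was higher in E, with 8689.5 and 11380 against 8401.6 and 6832.9 (0.39 ± 0.15, adjusted p = 0.0496). The Krt8 call was lost without library B of E. Krt19, also luminal, was higher in T, with 366.8 and 535.8 in E against 657.5 and 564.5 in T (-0.41 ± 0.16, adjusted p = 0.0484). Its call was lost without library A of E. Elf5 and Csn2, of the milk-secreting lineage, had at most 1.06. Of the basal markers, Krt14 was higher in T (-1.99 ± 0.18), and Trp63, at a low level, was higher in E (0.41 ± 0.14, adjusted p = 0.0254). The Trp63 call was lost without library A of E, library B of E or library A of T. The summed level of the 6 lymphocyte markers lay between 0 and 5.10 normalized counts. The 7 pan-leukocyte markers summed to 1159.1 and 1052.3 in E and 594 and 648 in T, nearly all of it the integrin gene Itgb2, which was higher in E (0.76 ± 0.10), while Tyrobp and Laptm5 had at most 0.801. The 7 endothelial markers summed to between 588 and 741, nearly all of it Eng, and Emcn and the stromal gene Lum were at 0. The 7 fibroblast markers summed to 1286.5 and 951 in E and 500.2 and 482 in T, nearly all of it Pdgfra, a growth factor receptor gene. The 6 macrophage markers in the table summed to between 191 and 283 in the 4 libraries. Their part in the results was not tested.

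Library A of clone E stood apart from library B. In it 13 genes had at least 20 normalized counts while library B of the same clone had at most 3 reads. At this cut, other clone libraries had at most 9 such genes against their partner. Of the 13 genes, 8 had at least 50 counts, which occurred in none of the other 45 clone libraries. All 13 genes were present in clone O, a non-intravasating clone, and the ratio of library A of E to the mean of clone O lay between 0.395 and 0.598, with a median of 0.463. Fbln1, a matrix glycoprotein gene, had 259 counts in library A and 0.801 in library B of E, with 600.1 in clone O. Dapk1, a death-associated kinase gene, had 208 and 2.4, with 455.5 in O, and Gas1, a growth-arrest gene, had 121 and 0, with 281.8 in O. Written as a weighted sum of library B and 1 other clone over all filtered genes, library A of E was 0.499 parts library B and 0.472 parts clone O. That sum removed 87.0% of the squared residual left by library B alone. The next best clone removed 27.0%, and the best clone for any of the 44 libraries outside clone E removed 29.9%. Library B of E in turn was best written as 0.397 parts library A and 0.616 parts clone B, which removed 42.7%. In the sum of library A and clone O fitted to library B, clone O had a weight of 0. The cause was not tested. Most counts of gene groups below are therefore given with all 4 libraries and without library A of E. The mean of clone O is given where it bears on a gene. Where a library left out is called library A with no clone named, it is that of E.

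**Figure D1:**
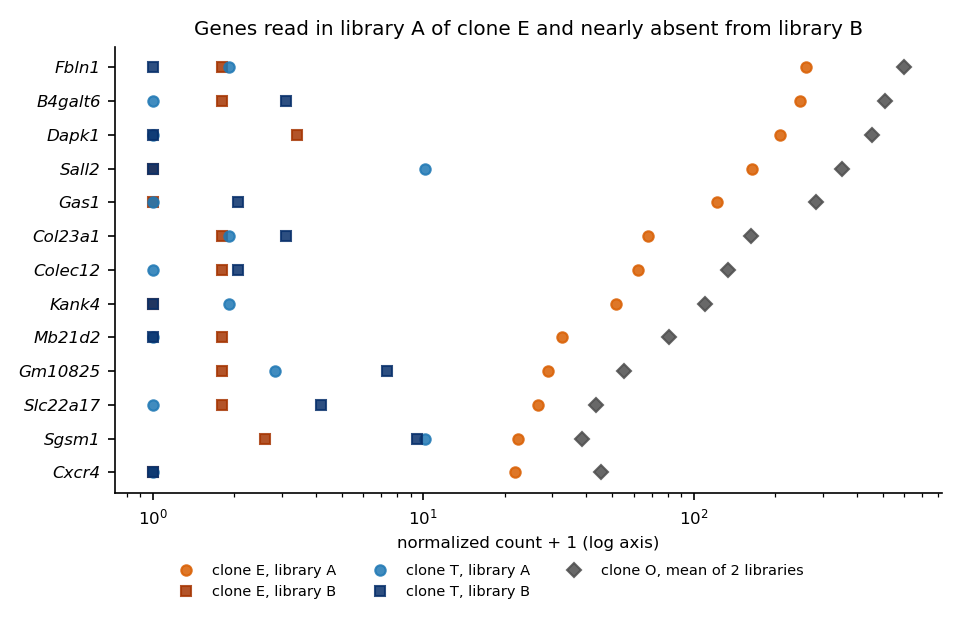
Normalized counts (log axis, 1 added) of the 13 genes with at least 20 counts in library A of clone E and at most 3 reads in its library B, in the 4 libraries of E and T and in clone O, where points that share a value lie on top of each other. Library A of E lies between 0.395 and 0.598 of the clone O mean in each of the 13 genes, whereas library B of E lies at most at 2.40.

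With all 4 libraries, 2090 genes (15.3% of those tested) were higher in E and 1829 (13.4%) higher in T, which together is 28.7%. The counts of each gene group below are to be read beside these shares over all genes. In bulk RNA, more cells with a transcript and more of it per cell cannot be told apart. Without library A of E, 1555 (11.4%) and 1257 (9.22%) were called. Of these, 1423 and 1156 were shared with the calls of all 4 libraries, 0 were called in the opposite direction, and 8 genes called with all 4 libraries changed sign. A log2 difference of at least 1 was passed by 349 genes (2.56%), 203 (1.49%) of them higher in E and 146 (1.07%) higher in T. Without library A these became 218 and 137, of which 156 and 107 were shared. For Serpine2, E had 6402 and 5499 counts and T had 7666 and 6329, so the libraries overlap and the difference of -0.23 ± 0.16 was not called (adjusted p = 0.306). Slpi had 6459.9 and 6558 in E against 5153 and 3405 in T, a difference of 0.63 ± 0.23 (adjusted p = 0.0366) that was no longer called without library A of E (adjusted p = 0.113), without library B of E or without library B of T.

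Most large differences lay within what the other clones span. The positions in this paragraph use the mean of both libraries of E, with clone O among the 21 others. They were not worked out without library A of E. In 293 of the 349 genes both E and T lay inside the range of the 21 other clones. In the 203 genes higher in E, E was the farther of the pair from the median of the others in 130 and T in 73. In the 146 genes higher in T, T was the farther in 77 and E in 69. T exceeded all 21 others in 33 of the 146, and E lay below all of them in 2. E exceeded all others in 6 of the 203, and T lay below all of them in 15.

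Among the 20 genes with the largest difference toward E, all 20 stayed called without library A of E, as did all 20 toward T. Slc14a1, which encodes a urea transporter, had 397 and 839 counts in E and 5.49 and 2.11 in T. Its difference was 3.82 ± 0.19, and 4.31 ± 0.19 without library A. Ptpru, a receptor-type phosphatase gene, had 464 and 974 in E and 37.5 and 26.4 in T, and both libraries of E exceeded the highest other clone, at 401. In both genes library B of E was the higher one and clone O was low, at 21.8 and 16.9, so library A lowered the E mean. Mgat3, which encodes a glycosyltransferase that bisects N-glycans, had 471 and 107 in E against 8.23 and 5.29 in T. Here clone O was high, at 941, and the difference of 2.54 ± 0.26 became 1.70 ± 0.19 without library A. Cplx2, a complexin gene of vesicle release, behaved alike, with 277 and 56.1 against 3.66 and 8.46, and its difference went from 1.97 ± 0.25 to 1.17 ± 0.20.

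Several of these genes set T, rather than E, apart from the other clones. Chn1, which encodes a chimaerin that inactivates Rac, had 681 and 613 counts in E, within the 383 to 726 of the other clones. In T it had 91.4 and 67.7, below all 21. Tbcel, a tubulin-cofactor-like gene, had 177 and 113 in E and 0 and 2.11 in T, where the median of the others was 93.1. In the opposite direction, Fam83a, a gene tied to growth factor receptor signalling, had 273 and 271 in T and 3.57 and 4.00 in E, while the highest other clone reached 27.7. Pgbd5, which derives from a transposase, had 170.1 and 151 in T against 5.6 and 0.801 in E and at most 40.4 elsewhere. Slc35f3, a solute carrier gene, had 96.9 and 130.0 in T, 1.02 and 7.21 in E and at most 22.6 elsewhere.

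**Figure D2:**
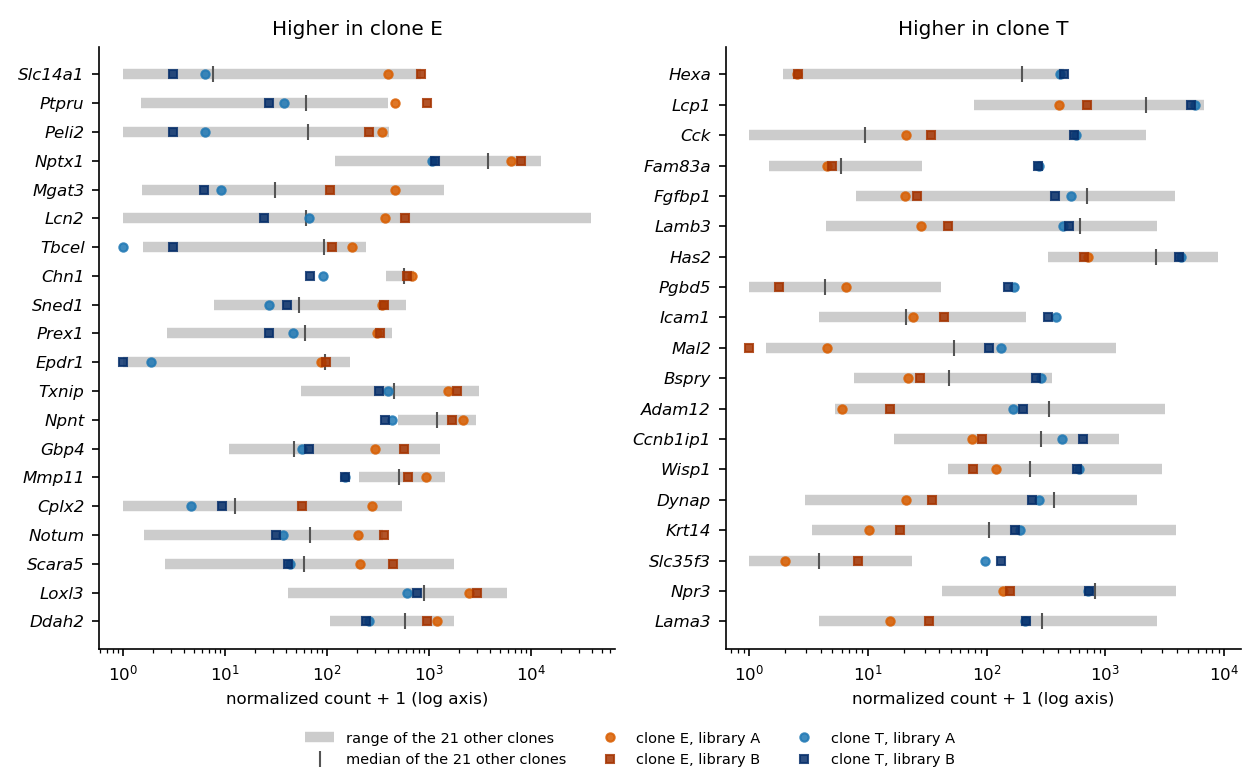
Normalized counts (log axis, 1 added) of the genes with the largest difference, 20 toward E and 19 toward T, for each library of E and T, with the range (grey bar) and median (tick) of the 21 other clones. The libraries of E and T do not overlap in any of these genes, which the naming rule required, and Fam83a, Pgbd5, Slc35f3 and Icam1 lie above the grey bars in T, Ptpru lies above them in E, and Chn1, Npnt and Mmp11 lie below them in T.

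Hexa, which encodes the alpha subunit of lysosomal beta-hexosaminidase, was nearly absent from E. Its counts were 1.53 and 1.6 in E and 418 and 447 in T, a difference of -3.60 ± 0.14 that did not move without library A (-3.60 ± 0.17). The gene lies at chr9:59539540-59565109 of GRCm38.p6. Among the other clones, B had 1.06 and 0.759 counts and O had 0 and 3.29. Clone A had 8.58 and 15.6, and the remaining 18 clones lay between 24.0 and 479. Of the 8 nearest tested genes, 4 on each side, none was called, and Pkm, the nearby pyruvate kinase gene, had 25358 and 31219 counts in E against 28591 and 27925 in T.

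Cadherin and epithelial junction genes were called in both directions. Of 34 tested, 10 were higher in T and 7 in E, without library A of E 9 and 8, and without library B of E 12 and 4. Over all genes tested, 13.4% were higher in T and 15.3% in E, and 9.22% and 11.4% without library A. The median was -0.10 and then 0.07, beside 0.0071 and 0.0044 over all genes tested. Cdh1, which encodes E-cadherin, had 2649.9 and 5045 counts in E and 8272 and 8542 in T, so that both E libraries were low. Clone O had 217, and the difference of -1.19 ± 0.15 became -0.73 ± 0.13 without library A (adjusted p = 0.000104). Dsg2, a desmoglein gene, had 209 and 409 in E against 744 and 755 in T, with 5.53 in O, and its difference went from -1.19 ± 0.17 to -0.78 ± 0.17. For these 2 genes the value moved by over 1.5 times, and it remained called. The claudin gene Cldn3 of tight junctions had 136 and 44.8 against 416 and 295, and the difference grew from -1.57 ± 0.24 to -2.06 ± 0.25. Claudin gene Cldn4 had 16.3 and 26.4 against 102 and 103. Cdh17, a liver-intestine cadherin gene, went the other way, with 163 and 75.3 in E against 22.9 and 26.4 in T (1.18 ± 0.18).

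Transcription and splicing factors of epithelial and mesenchymal states did not separate the clones in 1 direction. Of 28 tested, 6 were called toward E and 5 toward T, without library A of E 5 and 5, and without library B of E 3 and 4. Zeb1, a repressor of E-cadherin, was low in both clones but above all 21 others in T, with 56.7 and 63.4 counts against 19.9 and 24.03 in E and at most 22.1 elsewhere. Its difference was -0.68 ± 0.16 (adjusted p = 0.00171). Esrp2, an epithelial splicing factor gene, was also higher in T, at 179 and 166 against 65.2 and 103. Tcf4, a basic helix-loop-helix factor gene, was higher in E, at 5869 and 7444 against 3702 and 4115. Among keratins, 3 of 12 were called toward E and 4 toward T, and without library A 2 and 2. The basal keratin gene Krt14 had 189 and 173 in T and 9.17 and 17.6 in E (-1.99 ± 0.18), and it passed with and without that library.

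Laminin and hemidesmosome genes were called in both directions. Of 17 tested, 4 were called toward E and 3 toward T, and 3 and 3 without library A of E. Lama3 and Lamb3, which encode chains of the laminin that anchors epithelia through hemidesmosomes, were lower in E. Lama3 had 14.3 and 32.03 counts in E and 210.3 and 212 in T. Lamb3 had 27.0 and 46.5 against 435 and 489. Library A of E was the lowest of the 4 libraries in both genes, and clone O held 2.85 and 3.4. Without that library the differences were -1.68 ± 0.13 and -2.37 ± 0.14, and both were still called. Itgb4, the integrin subunit that binds this laminin, was higher in E, with 1843 and 2966 against 1069.9 and 1133 (1.04 ± 0.13). Npnt, which encodes the matrix ligand nephronectin, had 2163 and 1683 in E and 439.8 and 372 in T, where it lay below all 21 other clones. Lama4, a laminin chain gene of mesenchymal and vascular basement membranes, was also higher in E, with 27.5 and 28.03 against 0.914 and 0 (1.16 ± 0.14).

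Of 19 integrin genes, 6 were called toward E and 3 toward T, and without library A of E 4 and 2. Itga2, the collagen-binding alpha 2 subunit, had 419 and 632 counts in E against 1189 and 1256 in T (-1.15 ± 0.15, and -0.89 ± 0.17 without library A). Itgb6, the beta 6 subunit that activates latent TGF-beta, had 9.68 and 11.2 against 51.2 and 61.3. Itga3, the alpha 3 subunit, was higher in E, at 14028 and 15005 against 9509.9 and 9361, and so was the leukocyte subunit gene Itgb2, at 1138 and 1032 against 593 and 637. Among 32 immunoglobulin-type and other adhesion genes, 8 were called toward E and 3 toward T, and without library A 4 and 3. Icam1, which binds leukocyte integrins, was above all other clones in T, at 382 and 329 against 22.9 and 42.4 in E and at most 212 elsewhere. Vcam1, a ligand of integrin alpha 4, had 2109.8 and 771 in E and 719.6 and 701 in T, and its difference of 0.80 ± 0.21 was 0.11 ± 0.16 without library A (adjusted p = 0.683). Clone O had 3792. Has2, the main hyaluronan synthase gene, had 714 and 656 in E against 4334 and 4207 in T. Cd44, the hyaluronan receptor gene, had 9460.3 and 10121 against 14481 and 12856, and its call was lost without library A of either clone (adjusted p = 0.0802 without that of E).

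**Figure D3:**
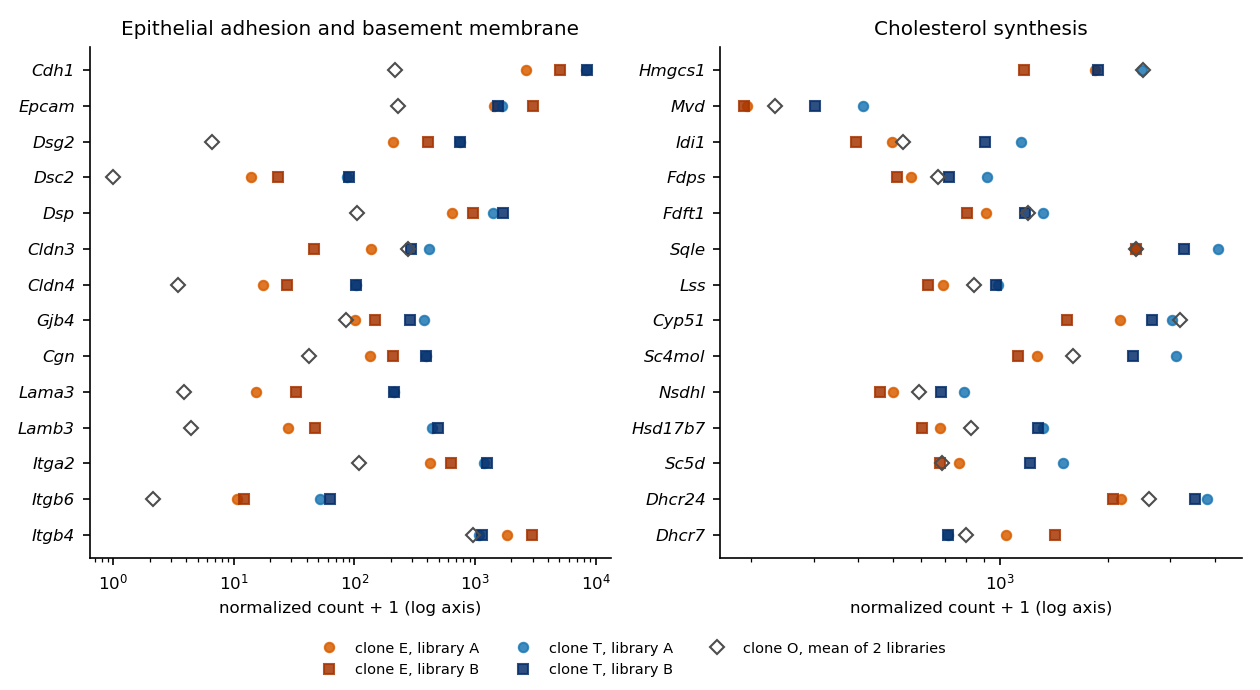
Normalized counts (log axes, 1 added) in each library of E and T, with the mean of clone O as open diamonds, for epithelial adhesion and basement membrane genes (left) and cholesterol genes (right). On the left library A of E lies between library B and clone O for Cdh1, Dsg2, Lama3 and Lamb3. On the right both E libraries lie below both T libraries for Sc4mol, Idi1 and Hsd17b7, and above them for Dhcr7.

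Matrix genes and proteases were called in both directions. Of 32 matrix glycoproteins and cross-linkers, 10 were called toward E and 6 toward T, and 8 and 6 without library A. Loxl3, a lysyl oxidase gene that cross-links collagen, had 2485 and 2959 in E and 608 and 772 in T (1.89 ± 0.11). Sparc, a collagen-binding matricellular gene, had 8071 and 6724 against 3389.7 and 3178. Tnc, which encodes tenascin C, was higher in T, at 620.0 and 686 against 176 and 167 (-1.63 ± 0.12). Emilin2, an elastin-interface gene, had 95.8 and 20.8 in E against 7.32 and 11.6, and like Fbln1 it was called only with library A of E (adjusted p = 0.265 without it). Of 30 metalloproteinases, ADAMs and TIMPs, 7 were called toward E and 5 toward T, and 6 and 4 without library A. Mmp11, or stromelysin 3, had 934 and 621 in E and 151 and 150.1 in T, below the 209 of the lowest other clone. Adamts9, a proteoglycan-cleaving protease gene, had 1112 and 951 against 222 and 273. Adam12, a membrane-anchored sheddase gene, had 165 and 199.8 in T against 5.09 and 14.4 in E, and the inhibitor gene Timp1 had 1618 and 1125 against 589 and 713.

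Serine proteases and their secreted inhibitors were called in both directions. Of 29 tested, 9 were higher in T and 5 in E, and without library A of E 9 and 3, with a median of -0.09 and -0.15. Without library B of T they were 9 and 1. Prss23, a secreted protease gene, had 411 and 414 counts in T against 217 and 183 in E, and Klk10, a kallikrein gene, had 138 and 143 against 41.3 and 45.6. Plau, which encodes urokinase, an activator of plasminogen, had 2292 and 1749 against 1282 and 998 (-0.79 ± 0.17). Both libraries of T exceeded both of E in each of these 3 genes.

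Coagulation and endothelial genes were called in both directions. Of 15 tested, 5 were called toward E and 4 toward T, and without library A 4 and 3. F13a1, the catalytic chain of coagulation factor XIII, had 121 and 200.2 counts in E and 14.6 and 11.6 in T, and E exceeded all other clones, the highest of which was clone O at 119. Library B of E was the higher of the pair. Angpt1, or angiopoietin 1, which acts on endothelial cells through the receptor Tie2, had 622 and 642 in E against 182 and 131 in T (1.69 ± 0.19). Tie1, a receptor gene of endothelial cells, had 42.98 and 37.0 in T and 1.53 and 0.801 in E. The endothelial markers Cdh5, Kdr and Emcn had at most 2.74 counts in each of the 4 libraries, whereas Eng, the endoglin gene, had 731 and 593 in E and 627 and 541 in T and was not called (adjusted p = 0.397). Procr, the endothelial protein C receptor gene, had 1382 and 1324 in T against 679 and 583 in E. F5, the factor V gene, had 126 and 15.2 in E against 3.66 and 10.6 and was not called without library A (adjusted p = 0.366).

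Actin and other cytoskeletal genes differed gene by gene. Of 40 actin-binding and contractile genes, 6 were called toward E and 8 toward T, and 8 and 6 without library A. Lcp1, which encodes L-plastin, an actin bundler of leukocytes and carcinoma cells, had 5746 and 5297 counts in T and 410.1 and 694 in E. Enah, an anti-capping protein gene of protrusions, was higher in E, at 666 and 529 against 195 and 186 (1.39 ± 0.14). Gsn, which encodes the severing protein gelsolin, was higher in T, at 1358 and 1059 against 521 and 643. Prex1, a Rac exchange factor gene, had 308 and 332 in E against 45.7 and 26.4 in T (2.11 ± 0.14). Dlc1, a gene of a GTPase-activating protein at focal adhesions, had 795 and 893 in T, above the 612 of the highest other clone, and 240.5 and 339 in E. Arhgdib, a gene of a GDP-dissociation inhibitor, had 449 and 474 against 229.8 and 92.1, and its difference grew from -1.32 ± 0.18 to -1.80 ± 0.16 without library A.

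Cholesterol synthesis, the route from acetyl-CoA through mevalonate and squalene to cholesterol that SREBP transcription factors control, was lower in E nearly throughout. Over all genes tested, 13.4% were higher in T and 15.3% in E. Of 20 genes tested, 15 were higher in T and 1 in E, and without library A of E 14 and 1, with a median of -0.54 and -0.60. Without library A of T, 11 and 1 were left. Sc4mol, a C4-methyl sterol oxidase gene now named Msmo1, had 1269 and 1117 counts in E and 3104 and 2355 in T. Idi1, which isomerises the first isoprenoid unit, had 497 and 393 against 1143 and 907, and Hsd17b7, a sterol ketone reductase gene, had 677 and 602 against 1321 and 1272. Their differences were -1.14 ± 0.14, -1.10 ± 0.19 and -0.95 ± 0.12, and the libraries did not overlap. Hmgcs1, which makes HMG-CoA, had 1842 and 1164 against 2497 and 1875. Clone O was at 2516 here, and the difference moved from -0.54 ± 0.15 to -0.86 ± 0.16 without library A. The exception was Dhcr7, the last enzyme of 1 branch, with 1036 and 1424 in E and 715 and 714 in T (0.72 ± 0.13). T was itself below the median of the other clones for Sc4mol (3991), Idi1 (1766) and Hsd17b7 (1633), so that E was low and T intermediate in the set of 23 clones.

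Uptake and control of cholesterol followed in part. Of 17 genes, 7 were higher in T and 1 in E, and 6 and 0 without library A. Abcg1, a cholesterol exporter gene, was higher in T, at 48.5 and 47.6 against 12.2 and 3.2. Of 20 fatty acid synthesis genes, 9 were higher in T and 0 in E, without library A of E 8 and 1, and without library A of T 5 and 1. Scd2, a stearoyl-CoA desaturase gene, had 19238 and 14169 in E against 32073 and 25292 in T, and was not called without library B of E. Lpin1, a phosphatidate phosphatase gene, went from a difference of -0.76 ± 0.13 to -1.14 ± 0.12 without library A, with 491 and 268 in E against 715 and 614.

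The promoters of the cholesterol genes were searched for 2 motifs on both strands, the sterol regulatory element TCACNCCAC, which SREBP binds, and the CCAAT box, which NF-Y binds. RefSeq promoters of GRCm38.p6, from 250 bases before to 50 after a start, matched 15 of the 20 genes. A CCAAT box stood in 14 of them (93.3%), against 37.4% of all 32851 promoters and 41.1% of all 27025 genes. The sterol element stood in 1, Hmgcs1, against 1.24% of all promoters and 1.44% of all genes. Of the 10 matched genes higher in T, 9 held the CCAAT box, as did Dhcr7, the gene higher in E. A match is a description of the letters and not a measured binding site. Shown are Hmgcs1 (chr13:119690101-119690400, plus strand), the only one with both motifs, and Sc4mol (chr8:64733529-64733828, minus strand), the gene with the largest difference. Capitals mark the motifs. In Hmgcs1 the sterol element begins 137 bases before the start and CCAAT boxes, read there on the opposite strand as ATTGG, begin 237, 176 and 45 bases before and 11 after it. In Sc4mol 3 CCAAT boxes begin 160, 96 and 55 bases before it.
Hmgcs1: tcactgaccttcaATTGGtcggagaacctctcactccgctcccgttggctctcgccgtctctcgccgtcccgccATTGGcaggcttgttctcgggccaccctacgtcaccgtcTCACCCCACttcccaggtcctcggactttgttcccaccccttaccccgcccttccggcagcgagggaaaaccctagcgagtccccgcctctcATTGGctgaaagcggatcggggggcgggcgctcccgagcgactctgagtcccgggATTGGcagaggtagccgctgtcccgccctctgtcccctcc
Sc4mol: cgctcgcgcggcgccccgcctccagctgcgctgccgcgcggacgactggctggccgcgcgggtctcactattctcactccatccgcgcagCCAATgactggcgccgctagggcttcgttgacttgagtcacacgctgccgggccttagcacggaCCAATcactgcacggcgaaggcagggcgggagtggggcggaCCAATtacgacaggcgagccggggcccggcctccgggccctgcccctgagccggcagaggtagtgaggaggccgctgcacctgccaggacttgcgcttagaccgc

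Antigen presentation by MHC class I, the display of peptides cut by the proteasome, carried by TAP and loaded with tapasin, was higher in E. The shares over all genes with all 4 libraries were 15.3% toward E and 13.4% toward T. Of 18 genes tested, 12 were called toward E and 0 toward T, and the same counts held without library A of E, where the median went from 0.45 to 0.61. Without library B of E, however, the median fell to 0.24, beside 0.0093 over all genes tested. Most of these calls were then lost, so they need library B. Psmb9, a subunit of the immunoproteasome, had 601 and 992 counts in E and 423 and 450.3 in T. Tap2, a subunit of the peptide transporter, had 196 and 301 against 127 and 142. Tapbp, or tapasin, had 2085 and 3153 against 1755 and 1439.7, and the heavy chain gene H2-K1 had 6676 and 8476 against 5248 and 4995. In these 4 genes library B of E was the highest library, the E and T libraries did not overlap, and the call was lost without library B. Without library A the differences went from 0.74 ± 0.20 to 1.08 ± 0.22 for Psmb9, from 0.65 ± 0.16 to 0.90 ± 0.18 for Tap2 and from 0.67 ± 0.18 to 0.96 ± 0.21 for Tapbp. Clone O had 259, 89.3, 1055 and 5431 of the 4 genes. Reads of near-identical H2 genes may be shared between them.

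Genes that interferon induces leaned the same way, beside the same shares of 15.3% and 13.4% over all genes. Of 37 tested, 13 were called toward E and 2 toward T, and without library A of E 16 and 0, with medians of 0.32 and 0.44. Without library B of E they were 7 and 2. Gbp6, a guanylate-binding protein gene of cell defence, had 93.7 and 183 counts in E and 24.7 and 19.03 in T (1.41 ± 0.18). Trim30a, a tripartite motif gene, had 90.2 and 115 against 16.5 and 14.8, and Gbp2 had 232 and 358 against 109.7 and 130.0. Igtp, an immunity-related GTPase gene, had 198 and 316 against 129.8 and 105. The others span far more, since the highest other clone held 981 counts of Gbp6 and 3078 of Trim30a, and E lay above 18 of 21 clones in both. Among 25 receptors, kinases and transcription factors of interferon signalling, 9 were called toward E and 3 toward T, 8 and 1 without library A of E, and 4 and 2 without its library B. Irf1, a transcription factor of the interferon-gamma response, had 1477 and 2044 in E against 1069.9 and 967 in T (0.74 ± 0.12). Jak2, the receptor-bound kinase, had 5085 and 2657 against 1415 and 1317, with 7581 in clone O, and its difference of 1.39 ± 0.16 was 0.93 ± 0.14 without library A. The chemokine gene Cxcl10, which interferon also induces, was higher in T with all 4 libraries, at 205 and 194 against 106 and 149, and was not called without library A (adjusted p = 0.177).

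The interferon-stimulated response element TTTCNNTTTC was searched on both strands in the same promoters, of which 3.44% hold it. The share over all genes was 3.99%. It stood in 18 of the 28 matched interferon-stimulated genes (64.3%) and in 7 of the 9 matched ones that were higher in E (77.8%). In MHC class I genes it stood in 4 of the 15 matched ones (26.7%), namely H2-T23, B2m, Psme1 and Erap1. All of these but B2m were among the 10 matched ones higher in E (30%). Shown are 3 of the genes higher in E, with the motif in capitals, namely Gbp2 (chr3:142620413-142620712, plus strand), Trim30a (chr7:104465144-104465443, minus strand, the first listed of its starts) and Igtp (chr11:58199306-58199605, plus strand). The motif begins 59, 36 and 34 bases before the start, and in Igtp it lies on the opposite strand.
Gbp2: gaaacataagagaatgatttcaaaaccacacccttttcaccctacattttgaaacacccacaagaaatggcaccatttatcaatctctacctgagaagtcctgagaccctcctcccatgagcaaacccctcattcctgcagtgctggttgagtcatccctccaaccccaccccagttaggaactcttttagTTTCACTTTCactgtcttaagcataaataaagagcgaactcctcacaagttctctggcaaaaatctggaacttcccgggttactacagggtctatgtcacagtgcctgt
Trim30a: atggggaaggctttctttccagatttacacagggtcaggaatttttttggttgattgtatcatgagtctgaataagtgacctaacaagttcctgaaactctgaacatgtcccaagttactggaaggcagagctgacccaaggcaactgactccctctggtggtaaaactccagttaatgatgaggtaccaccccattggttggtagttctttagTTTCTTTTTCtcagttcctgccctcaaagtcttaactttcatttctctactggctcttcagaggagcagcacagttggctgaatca
Igtp: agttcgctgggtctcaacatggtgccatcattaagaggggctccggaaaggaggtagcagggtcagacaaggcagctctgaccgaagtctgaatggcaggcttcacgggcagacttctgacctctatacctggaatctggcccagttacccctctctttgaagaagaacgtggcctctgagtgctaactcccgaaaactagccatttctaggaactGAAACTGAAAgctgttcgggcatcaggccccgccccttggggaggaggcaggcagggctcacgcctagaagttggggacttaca

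**Figure D4:**
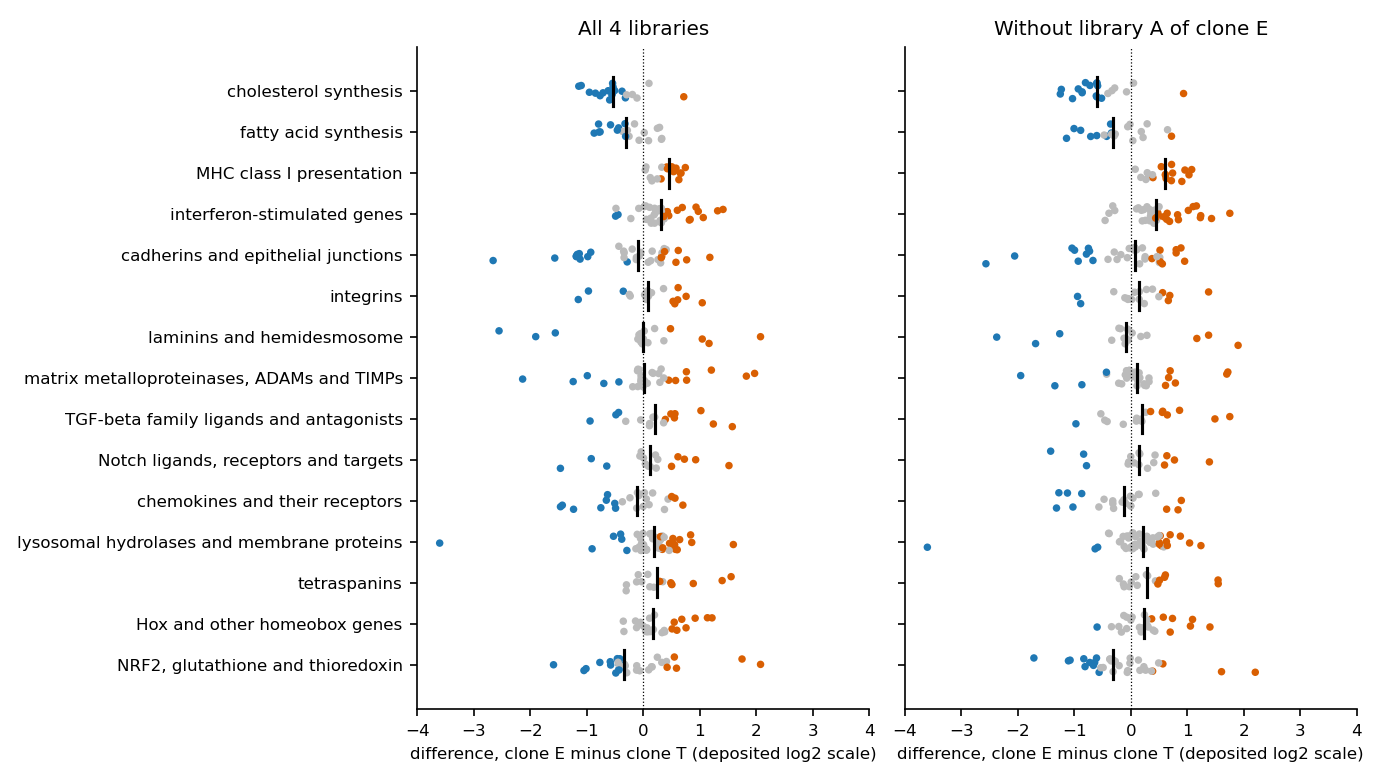
Difference between clones E and T (deposited log2 scale) of each tested member of 15 gene groups, with all 4 libraries (left) and without library A of clone E (right), where orange points were called higher in E, blue points higher in T and grey points not called, and black lines mark group medians. Cholesterol synthesis has medians of -0.54 and -0.60 and MHC class I presentation of 0.45 and 0.61, while integrins and metalloproteinases spread to both sides of 0.

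Secreted signals of the TGF-beta family were called in both directions. Of 17 ligands, latency proteins and antagonists, 7 were called toward E and 3 toward T, and 7 and 1 without library A. Ltbp3, which holds latent TGF-beta in the matrix, had 7086 and 9075 counts in E against 2581 and 2710.3 in T (1.58 ± 0.13). Bmp7, a bone morphogenetic protein gene, had 1277 and 1832 against 638 and 585. Inhba, the activin A subunit, was higher in T, at 1592 and 2422 against 1013 and 971, and was not called without library B of T. Of 28 receptors, Smads and targets, 7 were called toward E and 4 toward T, and 5 and 4 without library A. Id3, a target gene of BMP signalling that blocks differentiation factors, had 2099.6 and 2622 in E against 1202 and 1041, and Id2 had 940.0 and 1277 against 667 and 450.3. Tgfbr2, the type II receptor gene, had 3541 and 3312 against 2324 and 1994 (0.65 ± 0.10). Id4 had 49.9 and 12.8 against 1.83 and 2.11 and was not called without library A (adjusted p = 0.08).

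The Wnt group held 30 tested genes, of which 8 were called toward E and 4 toward T, or 7 and 5 without library A. Wisp1 and Wisp2, a pair of matricellular genes named as Wnt targets, went in opposite directions. Wisp1 had 599.9 and 572 counts in T against 119 and 76.1 in E (-2.07 ± 0.13), and Wisp2 had 139 and 220.2 in E against 34.7 and 19.03 in T (1.60 ± 0.18). Wnt7b, a Wnt ligand gene, was higher in E, at 2315 and 2619.6 against 1455 and 1181, as was Notum, a secreted enzyme gene that inactivates Wnt ligands, at 202 and 368 against 36.6 and 30.7. In the Notch group, 5 of 17 were called toward E and 3 toward T, and 4 and 3 without library A. The ligand Jag1 had 428 and 410.1 in T against 109.5 and 121 in E (-1.47 ± 0.11), and its paralog Jag2 had 102 and 77.7 in E against 7.32 and 6.34 in T (1.52 ± 0.16). The ligand Dll4 was higher in T, at 211 and 233 against 78.5 and 106. Nrarp, a feedback gene of Notch, had 771 and 465 in E against 293 and 281, and its difference fell from 0.93 ± 0.14 to 0.60 ± 0.15 without library A.

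Chemokine genes were called in both directions. Of 23 chemokine and receptor genes, 8 were higher in T and 3 in E, 5 and 3 without library A of E, and 3 and 3 without library A of T. Ccl2, which attracts monocytes, had 856 and 646 counts in T and 195 and 272 in E (-1.47 ± 0.20). Cxcl16, a membrane-bound chemokine gene, had 408 and 381 against 97.3 and 124, and the scavenging receptor gene Cxcr7 had 515 and 416 against 133 and 198. Cxcr4, a receptor tied to metastasis, had 20.9 counts in library A of E and 0 in the other 3 libraries, with 44.5 in clone O. Its call therefore rests on library A alone. Of 42 cytokine, complement and acute-phase genes, 9 were called toward E and 7 toward T, 6 and 3 without library A of E, and 6 and 2 without library A of T. Lcn2, an iron-scavenging defence protein gene, had 369 and 579.8 in E and 65.8 and 23.3 in T. Il11, a cytokine gene of the IL-6 family, had 200.2 and 297 against 65.8 and 114 (1.07 ± 0.22), and Gsdmd, a pore-forming gasdermin gene, had 539 and 725 against 277 and 268 (1.04 ± 0.13).

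In 3 groups of surface and nuclear regulators, the calls with all 4 libraries were toward E. Over all genes, 15.3% were called toward E and 13.4% toward T. Of 16 tetraspanins, scaffolds of the cell membrane, 7 were called toward E and 0 toward T, and 6 and 0 without library A. Tspan15 had 414 and 523 counts in E against 146 and 135 in T, and Tspan11 had 77.95 and 76.9 against 8.23 and 1.06. Of 10 receptor-type phosphatases, 5 were called toward E and 0 toward T, and 4 and 0 without library A. Ptprk, whose product binds itself between cells, had 4415 and 4315 against 2574 and 2817. Of 25 Hox and other homeobox genes, 8 were called toward E and 0 toward T, and 7 and 1 without library A. Pitx1, a limb homeobox gene, had 345 and 464 in E against 139 and 139.5 in T. The E mean exceeded all 21 other clones. Satb1, a chromatin organiser gene, had 99.9 and 84.1 against 20.1 and 16.9 (1.14 ± 0.14).

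Lysosomal genes were called in both directions. Of 48 tested, Hexa included, 15 were called toward E and 6 toward T, 10 and 3 without library A of E, and 13 and 2 without library A of T. Ctsd, the aspartic protease cathepsin D, had 5973 and 7725 counts in E against 3872 and 3569 in T (0.86 ± 0.15), and Arsb, a sulfatase gene, had 1333 and 1413 against 787 and 694. Gpnmb, a lysosomal and surface glycoprotein gene, had 3360.1 and 2037 against 779 and 871.

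Redox, ribosomal and mitochondrial genes were called more toward T with all 4 libraries, and library A of T was the highest library for all 3 groups. Without it, 7.99% of all genes tested were higher in T and 10.6% in E. The ribosomal and mitochondrial groups then had 8 of 94 and 6 of 83 higher in T, shares near 7.99%. Higher in E were only 1 of 94 and 0 of 83. The group medians without library A of T were still -0.22 and -0.09, beside 0.0045 over all genes tested, so a lean toward T remained. Of 33 genes of NRF2, glutathione and thioredoxin, 14 were higher in T and 5 in E, with a median of -0.33. Without library A of E these were 10 and 4, without its library B 8 and 5, and without library A of T they were 4 and 4. Hmox1, or heme oxygenase 1, had 1097 and 924 counts in T against 326 and 264 in E (-1.59 ± 0.16). Prdx1, a peroxiredoxin gene, had 18620 and 12035 against 7316 and 7079.6 and was not called without library A of T, and Txn1, the cytosolic thioredoxin, had 19154 and 13668 against 8497 and 7499. Gstm1, a glutathione transferase gene, went toward E, at 288 and 227 against 42.98 and 38.1. Cytosolic ribosomal protein genes summed to 400880 and 411110 normalized counts in E and to 640150 and 503650 in T. Of 94 tested, 28 were higher in T and 2 in E, 8 and 1 without library A of T, and 40 and 1 without library B of T. The nuclear genes of oxidative phosphorylation summed to 202260 and 214200 in E and 279290 and 222190 in T, and 19 of 83 were higher in T and 0 in E. This became 6 and 0 without library A of T and 26 and 0 without library B of T. The part of library A of T in these counts was not tested. Without library A of E the ribosomal and mitochondrial medians were -0.43 and -0.29, beside -0.41 and -0.22 with all 4 libraries. Reads of ribosomal protein genes may be shared with their pseudogenes.

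A few genes were read in 1 clone and nearly absent from the other. With at most 3 reads in each library of T and a mean of at least 50 counts in E there were 11 genes, but Fbln1, B4galt6, Dapk1 and Gas1 among them had at most 2.40 counts in library B of E. Zfp711, a zinc finger gene of the X chromosome, had 40.8 and 80.1 in E and 0 in both libraries of T, at least 38.1-fold higher against a floor of 3 reads over the group. Ppargc1a, the coactivator PGC-1 alpha of mitochondrial genes, had 38.2 and 70.5 in E and 0 in T, at least 34.5-fold higher, and clone O had only 0.548. Epdr1, an ependymin-related gene, had 87.1 and 98.5 in E against 0.914 and 0 in T. Rspo3, a secreted amplifier of Wnt signals, had 72.9 and 103 against 2.74 and 3.17. The same rule in the other direction gave 2 genes, Hexa and Kazn, a desmosome-linked gene with 73.2 and 70.8 in T against 1.53 and 0 in E. Below that level, Slc2a3, the glucose transporter GLUT3, had 42.1 and 26.4 in T and 0 in both libraries of E, at least 37.3-fold higher, with at most 14.5 in the other clones.

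Differences between E and T were unevenly spread over the chromosomes. Of 10708 genes with at least 50 counts in the higher clone and a chromosome in RefSeq, 17.0% were higher in E and 15.8% higher in T. On chromosome 4, 317 of 689 genes (46.01%) were higher in T and 32 (4.64%) in E, and without library A of E 251 (36.4%) and 23 (3.34%). The median ratio of T over E in normalized counts there was 1.31, and 1.32 without library A, against 0.999 over all chromosomes. The shift ran along the whole chromosome, since the median log2 ratio of E over T lay between -0.57 and -0.30 in each of its 8 windows of 20 Mb. Against the median of the 21 other clones, T stood at 0.39 on chromosome 4 and library B of E at -0.02. T had the highest chromosome 4 level of the 23 clones, at 0.37 above the median clone, followed by clone U at 0.16, and clone S had the lowest, at -0.65. Chromosome 14 leaned toward T, with 34.1% of genes higher in T and 6.78% in E, and chromosome 10 toward E, with 30.3% and 5.68% higher in T. For chromosome 14 the median log2 ratio of E over T was -0.29 both with all 4 libraries and without library A of E. For chromosome 10 the median log2 ratio was 0.23, and 0.29 without library A of E. Chromosome 2 changed most with that library, from 0.12 to -0.01. These are descriptions with no test, and copy number was not measured. Of the genes named above, Prdx1, Txn1, Tnc, Tie1 and Kazn, higher in T, and Ptpru, Cdh17 and Id3, higher in E, lie on chromosome 4. So do 6 of the 28 ribosomal protein genes, 5 of the 19 oxidative phosphorylation genes and 1 of the 15 cholesterol synthesis genes higher in T. These groups had 8, 5 and 1 tested genes on chromosome 4.

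**Figure D5:**
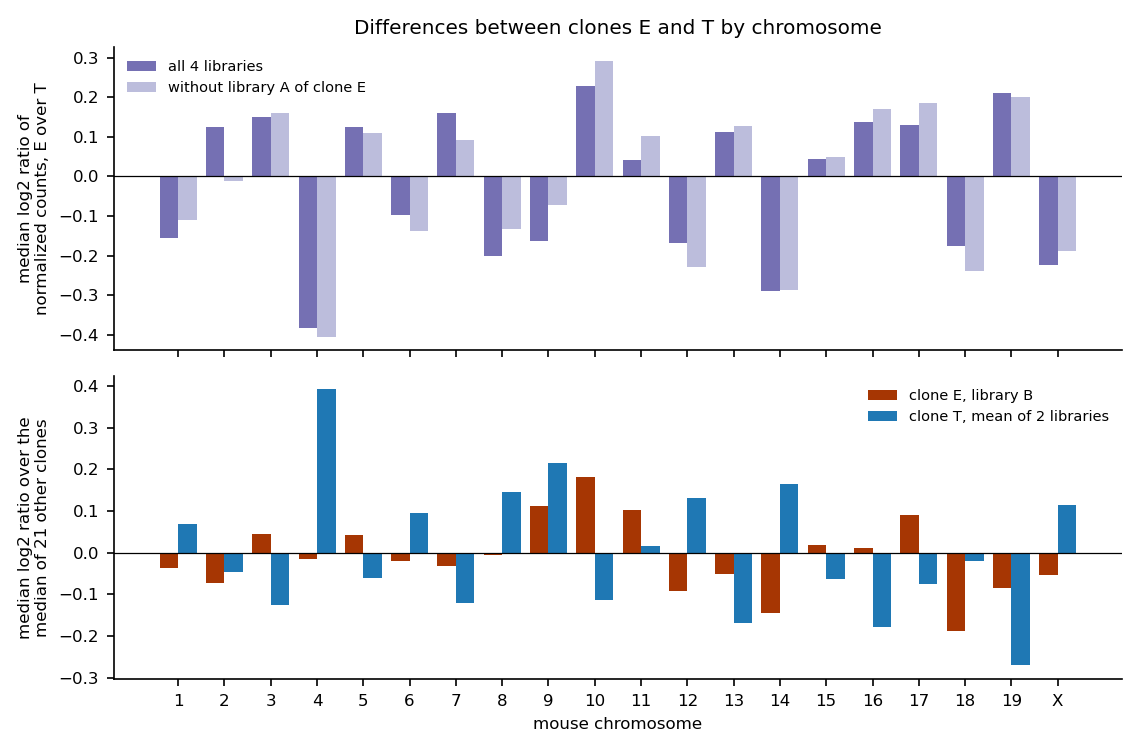
Median log2 ratio of normalized counts of clone E over clone T by chromosome, with all 4 libraries and without library A of E (top), and of library B of E and the mean of T over the median of the 21 other clones (bottom), for genes with at least 50 counts in the higher of E and T. Chromosome 4 has the lowest bars at the top, -0.38 and -0.40, and the highest T bar at the bottom, 0.39.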

How the data were processed

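RNA was sequenced from 23 single-cell-derived 4T1 clones with 2 libraries each, and clones E and T are compared here. Per the submitters' processing notes, reads were handled with Bowtie2, HTSeq and DESeq on mm10; the sources used here state no versions or strand settings, so overlapping and antisense genes cannot be told apart. The deposited values are log2 values from the authors' variance-stabilizing transformation, which puts a gene without reads at 5.03 in every library. The transformation was inverted to normalized counts, and dividing by the value of 1 read gave whole numbers of reads within 0.01 for 100% of values. All columns used matched a sample, and 0 did not.

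Differences were tested with limma 3.58.1 in R 4.3.3 on the deposited log2 values of all 46 clone libraries, with 1 mean per clone, a variance trend, and Benjamini-Hochberg adjustment, called at an adjusted p under 0.05. The design had been written for values that are not logarithms, and the log2 values were used directly instead. Genes with at least 10 normalized counts in at least 2 of 46 libraries were kept, which left 13637. Count tests were not run on the recovered reads, apart from voom weights as 1 of the alternatives. The fit was tested on simulated data with known changes. Simulated libraries of a clone shared 1 mean, so none departed from its partner as library A of E does. Gene positions and promoters come from RefSeq on GRCm38.p6, which covered 99.4% of tested genes.

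Named are the 20 called genes with the largest difference in each direction (mean of at least 50 counts in the higher clone, libraries not overlapping, predicted genes left out), up to 6 called members of each gene group, Serpine2 and Slpi, defining markers, and up to 10 genes in each direction with at most 3 reads in each library of the other clone. Pkm, Hmgcs1, Cxcl10, Cxcr4, Emilin2 and the genes of library A of E were added after their values were seen. Some genes and 1 gene group are not reported here. The clones compared, the gene groups and the tests were chosen with earlier results of these data known. Alternatives were the 4 libraries alone, no trend, voom, log2(count + 1) and log2(count + 5), other filters and 2 other scalings. Further alternatives were the library letter as a block and each library left out. Leaving out library A of E beside most counts of gene groups, and the chromosome medians without it, were added after seeing the data.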

Additional observations from a re-analysis of the deposited data

How the results depend on the processing

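The 3919 genes called fell to 1853 when the 4 libraries of E and T alone gave the spread, and leaving out 1 of the 4 libraries gave 2536 to 3042. The 349 genes past a log2 difference of 1 became 1043 with voom weights on the recovered reads, 940 with log2(normalized count + 1) and 887 with log2(normalized count + 5), scales that compress low counts less, and 343 to 433 with 1 library left out. Without library A of E, the difference of Gas1 went from 1.10 to -0.13 and that of Aqp5, a water channel gene, from 0.72 to -0.0063, whereas without library B of E they were 2.33 and 1.44. Over 335 named genes and 4675 pairs of gene and alternative, 4361 kept their call, 312 lost it and 2 changed sign, and 54 of the losses came without library A of E and 87 with the 4 libraries alone.

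Fitting the library letter as a block gave 4207 called genes, 2232 higher in E and 1975 in T, and 350 past a log2 difference of 1, and no named gene changed its call. Whether the letters pair the samples was not settled. The A minus B differences of E and T correlate at -0.07 across genes. That value cannot decide it, since library A of E departs from its library B as described above. Over 253 pairs of clones the correlations ran from -0.50 to 0.64, with a median of 0.08. Of these pairs, 113 lay above 0.1 and 48 under -0.1. Median centring gave 1946 higher in E and 1977 in T. On the deposited scale a gene close to the floor of 5.03 in both clones cannot show a large difference, and 2 libraries per clone limit the precision.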

Other observations

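Growth factor, prostaglandin and metabolic genes were called in both directions. The shares over all genes were 15.3% toward E and 13.4% toward T, or 11.4% and 9.22% without library A of E. Of 29 receptor tyrosine kinases, 8 were called toward E and 2 toward T, and 5 and 2 without library A of E. Igf1r, the receptor gene of insulin-like growth factor 1, had 4242 and 3934 counts in E and 2173 and 2873 in T (0.69 ± 0.14). Epha1, an ephrin receptor gene, had 969 and 317 against 209 and 241, with 1789 in clone O, and was not called without library A (adjusted p = 0.066). The 27 growth factors and binding proteins gave 7 toward E and 5 toward T, or 6 and 3 without that library. Fgfbp1, a carrier that releases fibroblast growth factors from matrix, had 512 and 379 in T and 19.4 and 24.8 in E. Of 14 prostaglandin synthesis and receptor genes, 3 were called toward E and 1 toward T, and 2 and 1 without library A. Ptgs1 and Ptgs2, the paired cyclooxygenase genes of prostaglandin synthesis, went in opposite directions. Ptgs2 had 4100.2 and 3906 in T against 1688 and 1317 in E (-1.39 ± 0.13), and Ptgs1 had 2000.3 and 806 in E against 563 and 387 in T, where the difference of 1.34 ± 0.20 was 0.71 ± 0.16 without library A.

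Among 35 hypoxia and glycolysis genes, 9 were called toward E and 7 toward T, and 6 and 4 without library A of E. The phosphofructokinase genes of glycolysis split, with Pfkm at 564 and 442 in E against 213 and 223 in T (1.01 ± 0.13) and Pfkp at 1123 and 1284 in T against 670.0 and 691 in E (-0.77 ± 0.10). Car9, a carbonic anhydrase gene that hypoxia induces, had 525 and 1008 in E against 479 and 436 in T and was not called without library B of either clone. Of 34 cell cycle and replication genes, 9 were higher in T and 3 in E, and 7 and 1 without library A of E. Ccnd2, or cyclin D2, had 2040.1 and 2155 in T against 532 and 1022 in E, and Ccnd1, or cyclin D1, had 53313 and 58320 in E against 37921 and 37880 in T. Clone O held 37.2 counts of Ccnd2, and its difference was -1.43 ± 0.15 with all 4 libraries and -0.99 ± 0.13 without library A. Of 20 water, urea and anion channel genes, 8 were called toward E and 1 toward T, and 3 and 2 without library A. Aqp1, a water channel gene, had 916 and 1045 against 418 and 401 (1.14 ± 0.13). The call of Aqp5 rested on library A of E, which held 229.8 counts beside 51.3 in library B, 47.5 and 56.02 in T and 443 in clone O.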
